A study of Oryza sativa Japonica Group with 4 samples.

Results

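The circadian clock core of rice was followed in young panicles of the wild type (WT) and of a line in which the bZIP transcription factor gene OsbZIP47 is targeted by RNA interference. The clock genes were chosen by gene identifier and number 10 of the 37862 genes in the count table. They are LHY (Os08g0157600), the pseudo-response regulator genes PRR73 (Os03g0284100), PRR37 (Os07g0695100), PRR95 (Os09g0532400), PRR59 (Os11g0157600) and PRR1/TOC1 (Os02g0618200), GI (Os01g0182600), PCL1 (Os01g0971800), ELF3-1 (Os06g0142600) and ELF3-2 (Os01g0566100). All 10 passed the filter on low counts and were tested. Plants were of the japonica cultivar TP309, and whole inflorescences 0.1 to 0.5 cm long were pooled for RNA. The WT group (n = 2 libraries) was the cultivar itself. The knockdown group (n = 2 libraries, genotype osbzip47 dsRNAi#14, named OsbZIP47KD below) expressed a hairpin against the 3′ untranslated region of OsbZIP47 from the maize ubiquitin promoter. Both knockdown libraries come from line 14, so the insertion of that line and the knockdown cannot be told apart. The hour of collection is not given in the sources used here, so the phase of the clock at sampling was not tested.

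The plant clock is a loop of transcription factors that repress each other in turn through the day. In Arabidopsis, LHY and its partner CCA1 peak at dawn and repress genes of the evening, the PRR proteins follow one another from morning to dusk and repress LHY and CCA1, and the evening complex of ELF3, ELF4 and LUX represses PRR genes at night. PCL1 is the rice counterpart of LUX. In rice, transcripts of PRR73 and PRR37 peak first, then those of PRR95 and PRR59, and last those of PRR1, while GI peaks late in the day and links the clock to flowering time. PRR37 and ELF3-1 are known in rice as heading date genes. Because the level of each of these transcripts depends on the hour, a change in one gene is read here beside the others of the same library.

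Raw counts per library summed to 3839165 to 5611969 reads, and 25289 genes were tested. The levels below are CPM, reads of a gene scaled to a common library size, and log2 fold changes are OsbZIP47KD over WT, given with their standard error (SE) and the adjusted p of edgeR's quasi-likelihood (QL) test. OsbZIP47 itself had more reads in both libraries labelled OsbZIP47KD (1003 and 919) than in both WT libraries (471 and 261), with a log2 fold change of 1.77 (SE 0.25, edgeR QL adjusted p = 0.0141). Reads of the hairpin can count toward that gene, so its total does not check the labels. All 10 listed markers of the young panicle had reads. Their summed levels were 776 and 690 CPM in WT and 751 and 448 CPM in OsbZIP47KD replicates 1 and 2. None of the 9 tested passed the QL test of edgeR. At an unadjusted p under 0.05, 1 was higher (APO1), against 6.85% of all tested genes, and 1 was higher by edgeR's exact test. Log2 fold changes of these 9 were below 0 for 3 and above 0 for 6. OsbZIP47KD replicate 2 held the lowest level of OsMADS14 (Os03g0752800), 56.8 CPM against 241 and 222 in WT and 179 in OsbZIP47KD replicate 1. The same held for OsMADS15 (Os07g0108900), at 84.2 CPM against 206, 199 and 218.5. Of 5 anther and pollen markers, summed levels were 6.60 and 7.15 CPM in WT and 6.53 and 21.7 CPM in OsbZIP47KD. Of these, TDR had 0 and 4 reads in WT and 4 and 37 in OsbZIP47KD. A difference in panicle stage between libraries was not tested. Bulk libraries cannot tell fewer cells that express a gene from less of its RNA per cell.

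The dawn factor LHY, a MYB-related repressor of evening genes, fell in OsbZIP47KD panicles to 0.186 of its WT level. It was at 67.7 and 44.7 CPM in WT replicates 1 and 2, and at 9.14 and 11.7 CPM in OsbZIP47KD replicates 1 and 2. Both OsbZIP47KD libraries lay below both WT libraries, and the lower WT library was well above the higher OsbZIP47KD library. The group means were 56.2 ± 16.2 CPM (SD, n = 2) and 10.4 ± 1.80 CPM (SD, n = 2), a 5.38-fold lower level. The log2 fold change was -2.43 (SE 0.31, edgeR QL adjusted p = 0.00518). Without OsbZIP47KD replicate 1 the adjusted p was 0.0530, within a range of 3.36e-10 to 0.0530 over the 14 alternatives.

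**Figure D1:**
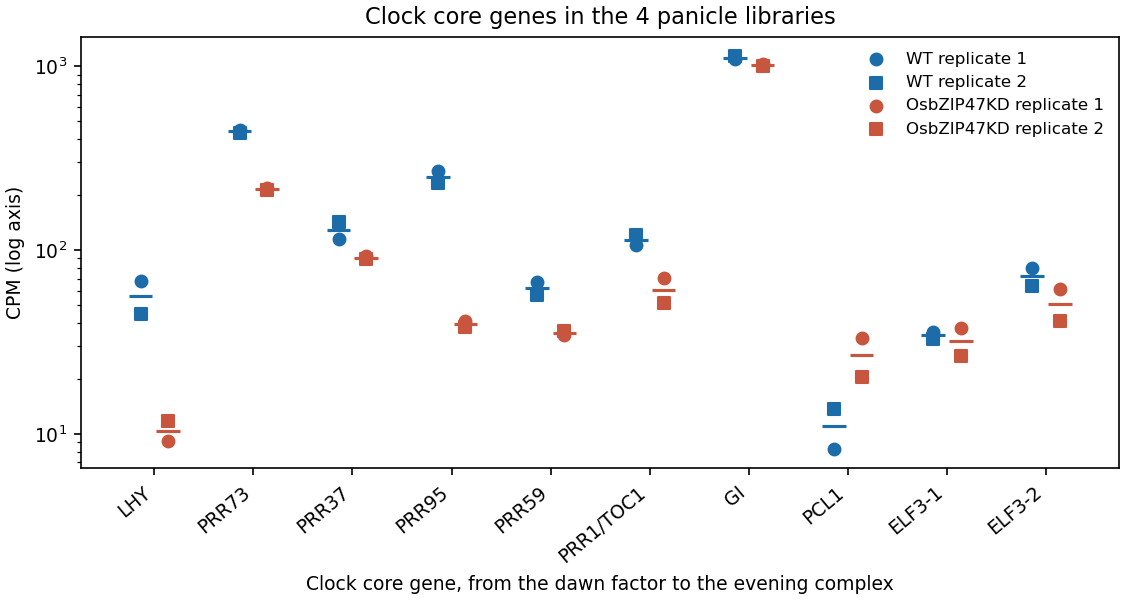
Level of each clock core gene in CPM (log axis) in the 4 libraries, with circles and squares for replicates 1 and 2 and a line at each group mean. LHY and PRR95 lie wide apart between the groups, at 56.2 against 10.4 CPM and 250 against 39.7 CPM, GI lies at 1114 against 1013 CPM, and PCL1 is the gene whose OsbZIP47KD libraries lie above both WT libraries.

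The day-phased PRR genes were lower in both OsbZIP47KD libraries than in both WT libraries, and PRR95 and PRR73 passed the test. PRR95 had the largest fold difference of the 10 clock genes, except without OsbZIP47KD replicate 2, where the log2 fold change was -2.60 for PRR95 and -2.62 for LHY. It was at 269 and 232 CPM in the WT libraries and at 41.3 and 38.2 CPM in the OsbZIP47KD libraries, a 6.31-fold lower level (log2 fold change -2.66, SE 0.20, edgeR QL adjusted p = 5.62e-05). Only 4 of the 25289 tested genes had a smaller p-value. Replicates of PRR95 lay close together, at 250 ± 26.8 CPM (SD, n = 2) in WT and 39.7 ± 2.18 CPM (SD, n = 2) in OsbZIP47KD, and the gene passed the test in each of the 14 alternatives.

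PRR73, of the pair whose transcripts come first in the rice PRR series, fell by a smaller factor. Its level was 450 and 433 CPM in WT and 216 and 212 CPM in OsbZIP47KD, which is 2.06-fold lower. The log2 fold change was -1.04 (SE 0.17, edgeR QL adjusted p = 0.0182). The replicates of each group were nearly equal for this gene, at 441 ± 11.7 CPM (SD, n = 2) in WT and 214 ± 2.74 CPM (SD, n = 2) in OsbZIP47KD. With 1 OsbZIP47KD library alone the call was lost, at an adjusted p of 0.0629 without replicate 1 and 0.0847 without replicate 2. The next identifier, Os03g0284150, had between 0.707 and 0.760 reads per PRR73 read in each library and a log2 fold change of -1.13, so the models may share reads.

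PRR37, the partner of PRR73 in sequence and known in rice as a repressor of heading in long days, differed less. PRR37 was at 115 and 142 CPM in WT and at 92.7 and 89.2 CPM in OsbZIP47KD. The groups did not overlap, and the log2 fold change of -0.49 (SE 0.19, edgeR QL adjusted p = 0.273) did not pass. PRR59, which pairs with PRR95, was at 67.3 and 57.0 CPM in WT and at 34.5 and 36.5 CPM in OsbZIP47KD. Its log2 fold change was -0.81 (SE 0.23, edgeR QL adjusted p = 0.146), and it passed with no filter on low counts, at an adjusted p of 0.0495 (range 0.0495 to 0.533 over its alternatives). Side by side, PRR95 and PRR59 were at 0.159 and 0.571 of the WT level, and PRR73 and PRR37 at 0.485 and 0.710. The differences between the genes of a pair were not tested.

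The dusk genes PRR1/TOC1 and GI did not pass the test. PRR1/TOC1, the last of the PRR series and a repressor of the dawn genes in Arabidopsis, was at 107 and 120 CPM in WT and at 70.5 and 51.3 CPM in OsbZIP47KD. All its OsbZIP47KD values were below its WT values, and its log2 fold change was -0.90 (SE 0.22, edgeR QL adjusted p = 0.0914). It passed with edgeR's exact test, at an adjusted p of 0.0316, and with no filter on low counts, at 0.00707 (range 0.00707 to 0.346 over its alternatives).

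GI, a large nuclear protein that acts with the blue light receptor FKF1 in flowering time, had the most reads of the clock genes and ranked 19th of all genes by total reads. Its level was 1098 and 1130 CPM in WT and 1022 and 1003 CPM in OsbZIP47KD. The groups did not overlap because the replicates were tight (1114 ± 22.3 and 1013 ± 13.3 CPM, SD, n = 2 each), but the difference itself was small. The log2 fold change was -0.14, with a 95% interval of -0.50 to 0.22 and an edgeR QL adjusted p of 0.766. The values of LHY, PRR95 and PRR73 lie outside this interval, and their own intervals were -3.11 to -1.75, -3.08 to -2.23 and -1.41 to -0.68. Those of PRR59, PRR1/TOC1 and PCL1 lie outside it as well, and differences between the clock genes were not tested.

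The evening complex held the only clock gene with a higher level in OsbZIP47KD. PCL1, its DNA-binding GARP-type member, was at 8.29 and 13.7 CPM in WT and at 33.4 and 20.5 CPM in OsbZIP47KD. Both OsbZIP47KD libraries lay above both WT libraries, on few reads (44 and 69 in WT, 128 and 86 in OsbZIP47KD). The ratio of the fitted levels was 2.45, with a log2 fold change of 1.29 (SE 0.38, edgeR QL adjusted p = 0.152), so PCL1 did not pass. It passed in 1 of 14 alternatives, without WT replicate 2, at an adjusted p of 0.0252 (range 0.0252 to 0.521), and its log2 fold change ran from 0.85 without OsbZIP47KD replicate 1 to 1.66 without WT replicate 2.

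Neither ELF3 gene, the scaffold of the evening complex, passed the test. ELF3-1 was at 35.8 and 32.8 CPM in WT and at 37.9 and 26.5 CPM in OsbZIP47KD, so its groups overlapped. Its log2 fold change was -0.10, with a 95% interval of -0.69 to 0.50 and an edgeR QL adjusted p of 0.914, and it was above 0 without OsbZIP47KD replicate 2. ELF3-2 was at 80.3 and 63.4 CPM in WT and at 61.4 and 41.0 CPM in OsbZIP47KD. Its higher OsbZIP47KD library almost reached its lower WT library, and the log2 fold change of -0.49 had a 95% interval of -1.03 to 0.05 and an edgeR QL adjusted p of 0.404.

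**Figure D2:**
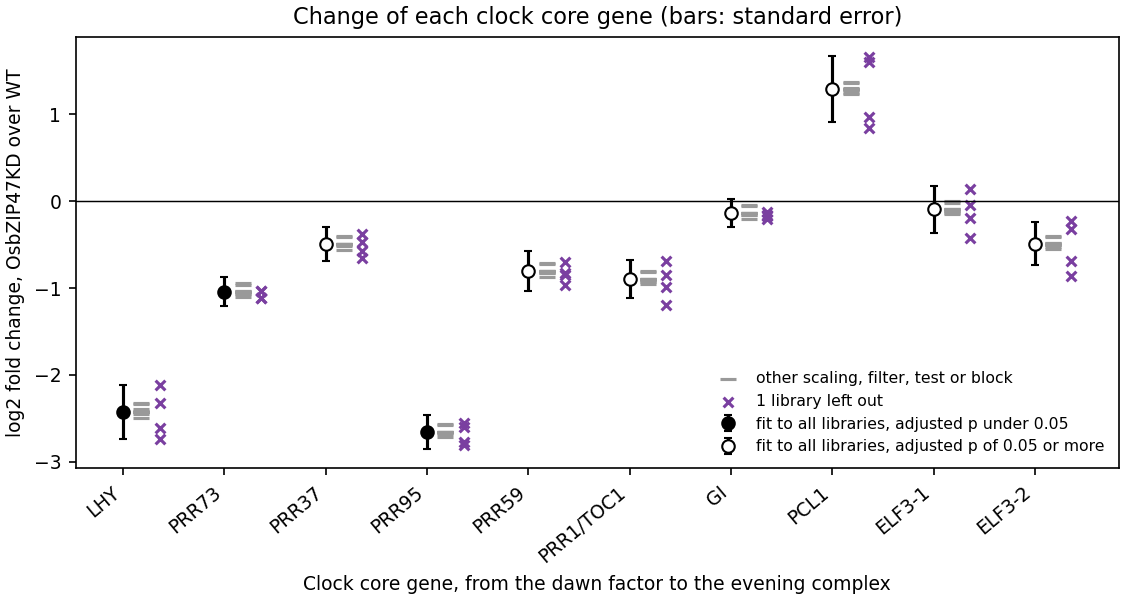
Log2 fold change of each clock core gene, OsbZIP47KD over WT, with its standard error (filled circles for an adjusted p under 0.05), beside the values under other scalings, filters, tests or the block (grey) and with 1 library left out (purple). LHY at -2.43, PRR73 at -1.04 and PRR95 at -2.66 are filled, PCL1 at 1.29 lies above 0, and ELF3-1 crosses 0 when OsbZIP47KD replicate 2 is left out.

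Of the 10 clock genes, 3 fell at an adjusted p under 0.05 (LHY, PRR73 and PRR95), against 0.522% of all tested genes called lower by the same test. The clock genes were chosen with earlier results of these data known, so the counts beside these shares are a description and no test. None rose, against 0.127% of all tested genes, and the count of clock genes called higher was 0 also with DESeq2, the exact test of edgeR and limma. At an unadjusted p under 0.05, 6 clock genes were lower (7.27% of all tested genes) and 1 was higher (6.85%). The study called genes whose log2 fold change reached 1 or -1 with an unadjusted p up to 0.05. Those cutoffs were put on the QL test and the genes tested here, which are not the study's own. With them LHY, PRR73 and PRR95 were lower (2.5% of all tested genes) and PCL1 was higher (4.62%). Both OsbZIP47KD libraries lay below both WT libraries for 8 clock genes (22.8% of all tested genes) and above them for 1 (23%). The median log2 fold change of the clock genes was -0.65, and that of all tested genes was 0.02. The count of clock genes called lower was 3 by DESeq2 and limma and 4 by edgeR's exact test, and it was 1 without OsbZIP47KD replicate 1 and 5 with no filter on low counts.

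Shares within the PRR family do not depend on how libraries are scaled, and that of PRR95 was lower in both OsbZIP47KD libraries. PRR95 made up 26.7% (95% Wilson interval 25.6 to 27.9) and 23.5% (22.4 to 24.7) of the reads of the 5 PRR genes in the WT libraries. In the OsbZIP47KD libraries its share was 9.06% (7.81 to 10.5) and 8.93% (7.69 to 10.3). The intervals of the groups, which cover counting error only, were far apart. The share of PRR37 was 11.4% and 14.4% in WT and 20.4% and 20.9% in OsbZIP47KD, and that of PRR73 was 44.6% and 44.0% in WT and 47.5% and 49.7% in OsbZIP47KD. Both genes took a larger part of a smaller family total, which was 5345 and 4948 raw reads in WT and 1743 and 1792 in OsbZIP47KD. The OsbZIP47KD libraries were themselves smaller, with 3839165 and 4063036 reads against 5611969 and 5100799 in WT, so these totals overstate the fall. The share of PRR59 was also higher, at 6.68% and 5.80% in WT and 7.57% and 8.54% in OsbZIP47KD. That of PRR1/TOC1 (10.6% to 15.5% over the libraries) overlapped between the groups. The shares were examined after the levels had been seen and carry no test.

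**Figure D3:**
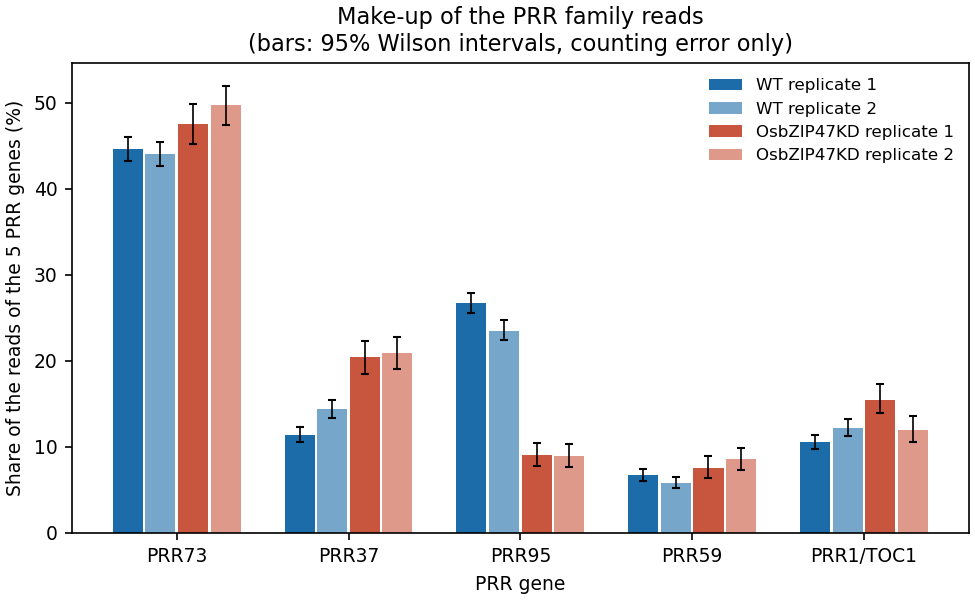
Share of each PRR gene among the reads of the 5 PRR genes in each library, in percent, with 95% Wilson intervals that cover counting error only. PRR95 drops from 26.7% and 23.5% in the WT libraries to 9.06% and 8.93% in the OsbZIP47KD libraries, and PRR37 takes 20.4% and 20.9% there against 11.4% and 14.4% in WT.

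Ratios of clock genes within a library show the levels above without scaling and are no further evidence. There were 816 and 326 LHY reads for each 100 PCL1 reads in WT, and 27.3 and 57.0 in OsbZIP47KD. LHY reads thus outnumbered PCL1 reads in both WT libraries and were fewer in both OsbZIP47KD libraries. For each 100 GI reads, LHY had 6.16 and 3.96 reads in WT and 0.894 and 1.17 in OsbZIP47KD, and PRR95 had 24.5 and 20.5 in WT and 4.04 and 3.8 in OsbZIP47KD. PRR73 had 40.9 and 38.3 reads for each 100 GI reads in WT and 21.1 and 21.2 in OsbZIP47KD. PCL1 went the other way, with 0.755 and 1.21 reads for each 100 GI reads in WT and 3.27 and 2.04 in OsbZIP47KD. These ratios compare 1 pair of genes across libraries, are free of library scaling, and do not compare the abundance of the paired genes, whose lengths differ.

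As a single value per library, the log2 CPM of LHY minus the mean of PRR1/TOC1, GI and PCL1 was -0.57 and -1.46 in WT replicates 1 and 2 and -3.82 and -3.08 in OsbZIP47KD replicates 1 and 2. The group means were -1.01 ± 0.63 (SD, n = 2) and -3.45 ± 0.52 (SD, n = 2), a difference of -2.44. The gap between the nearest libraries of the groups was wider than the gap between replicates of either group. The mean of the 3 evening genes hardly differed between the groups, since PRR1/TOC1 and GI were lower and PCL1 higher in OsbZIP47KD, so this value restates the change of LHY (-2.43) and adds no further support. An exact two-sided permutation test of 2 libraries against 2 cannot give a p below 0.333, and none is given. Against PRR1/TOC1 alone the groups lay closer, at 63.5 and 37.2 LHY reads for each 100 PRR1/TOC1 reads in WT and 13.0 and 22.8 in OsbZIP47KD.

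**Figure D4:**
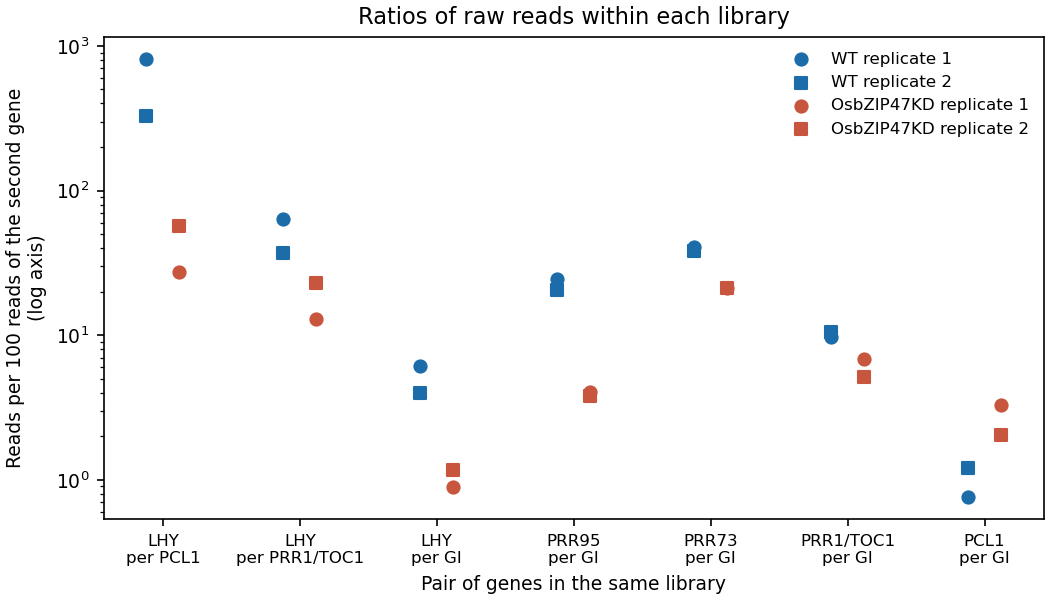
Raw reads of 1 clock gene for each 100 reads of another in the same library (log axis), with circles and squares for replicates 1 and 2. LHY for each 100 PCL1 reads runs from 816 and 326 in WT to 27.3 and 57.0 in OsbZIP47KD, PRR95 for each 100 GI reads from 24.5 and 20.5 to 4.04 and 3.8, and PCL1 for each 100 GI reads is higher in both OsbZIP47KD libraries.

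Since transcripts of the clock swing with the hour, the spread between replicates was also examined. In log2 CPM the WT replicates differed by 0.04 for GI and 0.05 for PRR73, and by 0.59 for LHY and 0.70 for PCL1. The median difference over all tested genes was 0.33 in WT and 0.36 in OsbZIP47KD. Of the 10 clock genes, 3 in WT and 4 in OsbZIP47KD lay above that median, and genes with more reads, such as GI and PRR73, have less counting error. In WT the gene with the widest spread was PCL1, followed by LHY, and WT replicate 1 had the higher LHY and the lower PCL1 level. In OsbZIP47KD, PCL1 differed by 0.69, ELF3-2 by 0.58 and LHY by 0.34, and OsbZIP47KD replicate 2 had the higher LHY and the lower PCL1 level.

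The genes next to the clock genes in identifier order were inspected, as the counting program and its strand setting are not given in the sources used here and reads of overlapping genes could not be told apart. The identifiers on each side of LHY had 0 to 6 reads in any library, and those beside PRR95 had 0 to 25 reads. These neighbours hold few of the reads of the genes that changed most. PRR37 and PRR59 resembled PRR73 in this respect. Os07g0695200 had 0.668 to 0.738 reads per PRR37 read and a log2 fold change of -0.49, and Os11g0157400 had 0.554 to 0.647 reads per PRR59 read and one of -0.68, so the values of PRR73, PRR37 and PRR59 are less certain than those of LHY and PRR95. PCL1 stands beside a gene with many more reads, Os01g0971900, with 634 and 504 reads in WT and 454 and 418 in OsbZIP47KD and a log2 fold change of -0.01. PRR1/TOC1 stands beside Os02g0618250, which had 0.221 to 0.865 reads per PRR1/TOC1 read and a log2 fold change of 0.37. Neither of these neighbours passed the test.

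Among 11 listed genes that work beside the clock, 10 were tested and 1 fell at an adjusted p under 0.05, against 0.522% of all tested genes. This gene was FKF1 (Os11g0547000), an F-box protein that senses blue light and in Arabidopsis acts with GI to degrade repressors of flowering. FKF1 was at 104 and 95.6 CPM in WT and at 45.2 and 51.3 CPM in OsbZIP47KD, with no overlap of the groups. Its log2 fold change was -1.05 (SE 0.20, edgeR QL adjusted p = 0.0433). The adjusted p of FKF1 was 0.0638 with upper quartile scaling, 0.0599 with library size scaling, 0.0705 without WT replicate 1, 0.130 and 0.133 without the first and the second OsbZIP47KD library (range 0.00149 to 0.133). In this list an unadjusted p under 0.05 was met by 2 higher genes (6.85% of all tested genes) and 1 lower gene (7.27%). The median log2 fold change was 0.06. OsPIL16 (Os05g0139100), a bHLH factor named here because its values stood out, had 19 and 52 reads in WT and 90 and 49 reads in OsbZIP47KD and did not pass, at an edgeR QL adjusted p of 0.300.

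Genes of photoperiodic flowering, which take their timing from the clock in leaves, were mostly too low to test in these panicles. Of 10 listed genes 4 were tested, 1 had no read in any library, and the QL test of edgeR called 0, with 0 also at an unadjusted p under 0.05. The median log2 fold change of the 4 tested genes was 0.81, with 3 of them above 0. The summed level of the list was 57.5 and 58.8 CPM in WT and 50.9 and 59.2 CPM in OsbZIP47KD, and most of it came from Os01g0922800, at 49.2 and 50.3 CPM in WT and 41.8 and 40.5 CPM in OsbZIP47KD. OsLF (Os05g0541400), named after its values were known, had 2 and 6 reads in WT and 10 and 17 reads in OsbZIP47KD, with a log2 fold change of 2.06 (SE 0.96, edgeR QL adjusted p = 0.359).

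Light-harvesting genes include classical outputs of the plant clock and also mark green leaf tissue. Of 15 listed genes of leaf tissue and photosynthesis, all 15 had reads and were tested. Of these, 2 fell at an adjusted p under 0.05, against 0.522% of all tested genes. An unadjusted p under 0.05 was met by 9 lower genes (7.27% of all tested genes) and 0 higher genes (6.85%). The median log2 fold change was -0.80. The summed level of the list was 643 and 690 CPM in WT and 330 and 464 CPM in OsbZIP47KD. Like LHY and PRR95, the sum was lower in both OsbZIP47KD libraries. Within WT the sum was higher in replicate 2, but the listed genes differed in this. CAB2R was at 81.2 and 145 CPM in WT replicates 1 and 2, and Os03g0592500 was at 69.9 and 43.3 CPM. LHY and PRR95 were higher in replicate 1. The part of green tissue in the difference of LHY and PRR95 was not tested. CAB1R (Os09g0346500), a chlorophyll a/b binding protein, was at 55.2 and 46.3 CPM in WT and at 9.66 and 9.54 CPM in OsbZIP47KD. Its log2 fold change was -2.40 (SE 0.29, edgeR QL adjusted p = 0.00357), against the list's median of -0.80. Lhca4 (Os08g0435900), an antenna protein of photosystem I, had a log2 fold change of -1.56 (SE 0.31, edgeR QL adjusted p = 0.0475). The Lhca4 call was lost with upper quartile scaling (0.0628), with library size scaling (0.0580) and in the fit that leaves out OsbZIP47KD replicate 1 (0.118), and its adjusted p ranged from 1.64e-04 to 0.118. In the same list 3 genes had a log2 fold change above 0, and none of them passed the test. They were Os12g0292400 (0.35), Os12g0291100 (0.60) and Os12g0274700 (0.86), and Os12g0274700 was listed as the leaf marker RBCS. The leaf marker PsbO (Os01g0501800) overlapped between the groups, at a log2 fold change of -0.28. CAB2R (Os01g0600900) was lower in both OsbZIP47KD libraries, at -1.23, and did not pass the test.

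CAB1R was also the named gene whose profile over the 4 libraries lay nearest to that of LHY, at a Euclidean distance of 0.35 in centred log2 CPM. The trehalose phosphate phosphatase gene OsTPP7 (0.39) and STRK1 (0.40), a gene for a receptor-like cytoplasmic kinase, came next. LHY and PRR95 were 0.50 apart on the same scale. For PRR95 the nearest was the heat shock factor gene HSFA3 (Os02g0527300) at 0.04, the first of all tested genes, with 377 and 317 reads in WT and 41 and 41 reads in OsbZIP47KD. Its level ran from 71.1 and 63.0 CPM in WT to 10.7 and 9.78 CPM in OsbZIP47KD, much as PRR95 did. ERF124, named as an ethylene response factor, followed at 0.24 on 2 to 25 reads, and CAB1R at 0.30. These distances rest on 4 libraries that all the genes share, and names come only from the genes that the study had already selected in these libraries.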

How the data were processed

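RNA of panicles was depleted of ribosomal RNA, sequenced in paired reads on an Illumina HiSeq and aligned by the authors to the RAP-DB rice genome with STAR v2.5.3a. The counting program and strand setting are not given in the sources used here. The authors deposited raw counts per gene, and a table of normalized values, a score equal to the count times 1 factor per library, blank for 8330 genes. The raw counts went into edgeR (v4.0.16, run under R v4.3.3) with filterByExpr (minimum count 10, minimum total 15), TMM scaling and the robust quasi-likelihood test with Benjamini-Hochberg adjustment over 25289 genes. The standard error is the log2 fold change divided by the square root of F. Log2 CPM used a prior count of 2. The exact test of edgeR, DESeq2 (v1.42.0) and limma (v3.58.1) on log2 of the deposited score with a pseudocount of 1 were alternatives, beside those in the closing section.

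The clock genes and lists were chosen with earlier results of these data known. Named genes were the 10 clock genes, up to 4 called members of each other list, OsbZIP47 and the 3 named genes nearest in profile to LHY and to PRR95. OsPIL16, OsLF and identifiers beside clock genes or carrying a list's sum were named outside that rule, after their values were seen. So were the panicle, anther and leaf markers that were not called. Names come from the list of clock genes, the marker lists and the study's tables of called genes. The RefSeq table (ASM3414082v1) holds no RAP identifiers, so an extension of the clock-associated list by annotation was not made and no sequence or coordinate was printed. On data simulated with the spread fitted to these libraries, the tests were checked for the sign and size of changes put in. That check set no criterion for false calls.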

Additional observations from a re-analysis of the deposited data

How the results depend on the processing

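LHY, the 5 PRR genes and ELF3-2 had a log2 fold change below 0 in every one of the 14 alternatives. The same held for GI in the 13 that could be computed, and PCL1 was above 0 in all 14. GI was among the 20 most abundant genes, so neither it nor the dawn minus evening value could be computed with those left out. Upper quartile and library size scaling put the median of all genes at 0.11 and 0.10 in place of 0.02 with TMM. Genes called numbered 787 with no filter (236 higher, 551 lower), 437 with DESeq2 (139, 298), 726 with edgeR's exact test (324, 402), 596 with the replicate block (186, 410), and 70 to 1232 (21 to 382 higher, 49 to 850 lower) with 1 library left out, in place of 164 (32 higher, 132 lower). With library size scaling 52 genes were higher. With no filter, 5 clock genes were called lower, PRR59 (-0.87) and PRR1/TOC1 (-0.96) included. PRR1/TOC1 also passed with the exact test (-0.90) and the replicate block (-0.91). With 1 library left out, 1 to 3 clock genes were called lower and 0 to 1 higher, and log2 fold changes ran from -2.74 to -2.11 for LHY, -1.11 to -1.03 for PRR73, 0.85 to 1.66 for PCL1 and -0.43 to 0.14 for ELF3-1, which was 0.14 without OsbZIP47KD replicate 2. In such fits the lone library is assumed to vary like the other group. Of the clock-associated list, 0 were called lower with upper quartile or library size scaling, and 0 to 1 lower and 0 to 1 higher with 1 library left out. Of the leaf list, 1 was called lower with upper quartile and with library size scaling, 4 with no filter and 1 to 4 with 1 library left out. Of the young panicle list, 1 was called higher with no filter, the exact test and the replicate block, and 0 to 1 in either direction with 1 library left out. The replicate numbers share no stated origin, and same-numbered deviations correlated with r = 0.04 across genes. At 3839165 to 5611969 reads per library, LHY and PCL1 rest on few reads (35 and 49 for LHY in OsbZIP47KD, 44 and 69 for PCL1 in WT).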
